A study of Rattus norvegicus with 9 samples.

Results

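The transcriptome of the unstimulated supraoptic nucleus was described from the 3 control arrays of a series of 9 Affymetrix rat arrays. The supraoptic nucleus is a small, paired cell group of the hypothalamus that lies beside the optic chiasm. The other 6 arrays carry RNA of dehydrated rats and were not described here. The control arrays were chosen by their label and named a, b and c after the letters in their titles, and all 8740 probe sets that are not Affymetrix controls were kept, of 8799 on the array. The rats were male Sprague Dawley of 10 to 12 weeks according to the labels, which name no genetic change or agent. The sources used here do not say whether an array carries the RNA of 1 animal or of a pool. The SDs below therefore measure only the spread between these arrays, which may be partly technical. With 1 group there is no comparison to test, so every value is a description.

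Magnocellular neurons of the nucleus make vasopressin or oxytocin as a large precursor that also holds a neurophysin, the carrier of the hormone. The precursor is packed into dense-core granules, cut and amidated on its way down the axon, and released from the posterior pituitary into the blood when plasma osmolality rises or, for oxytocin, in labour and suckling. The somata are wrapped by astrocyte processes, lie in a dense capillary bed, and receive mainly GABA and glutamate synapses. The optic chiasm and optic tract, which are myelinated, run along the nucleus.

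Levels are given as MAS5 signal, a linear brightness for each probe set, and as the percentile of that signal among the 8740 probe sets of the same array, where 100 is the brightest. A percentile places the signals of probe sets, which bind their targets with unequal strength, and is not a count of transcripts. A gene with several probe sets is given by the one with the highest mean signal over the control arrays, which puts the median gene at 56.6 and not at 50. After ± stands the SD over n = 3 arrays, and a list median is the median percentile of a list's measured genes, averaged over the arrays. Of 4736 genes with a name, 410 lay in the top 10 percent on all 3 arrays (8.66 percent) and 1109 lay under the 40th percentile on all 3 (23.4 percent). As a measured background, 75 genes of liver, muscle, pancreas and other tissues outside the brain had a list median of 30.3 ± 3.57, and 90 percent of them lay under a mean percentile of 60.3. That value is called the non-brain level below, and 44.7 percent of all genes lay above it.

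The signal was concentrated in few probe sets. The brightest 1 percent held 18.8, 18.1 and 13.1 percent of the summed signal on arrays a, b and c, the brightest 10 percent held 64.3, 64.9 and 63.7 percent, and the dimmer 50 percent of probe sets held 4.7, 5.2 and 3.7 percent. Array c was compressed at the extreme top, with a 99th percentile of 1448.1 against 1835.6 and 1849.9 on a and b, and a highest signal of 2104.8 against 3950.8 and 3867.3. Below the top it was spread at least as widely, with a 90th percentile of 330.4 against 296.1 and 285.9 and a median of 27.4 against 36.2 and 36.1. As a check of RNA quality, signal at the 3' end over that at the 5' end was 0.95, 1.09 and 0.93 for Gapdh and 1.04, 0.74 and 1.07 for beta-actin on a, b and c.

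**Figure D1:**
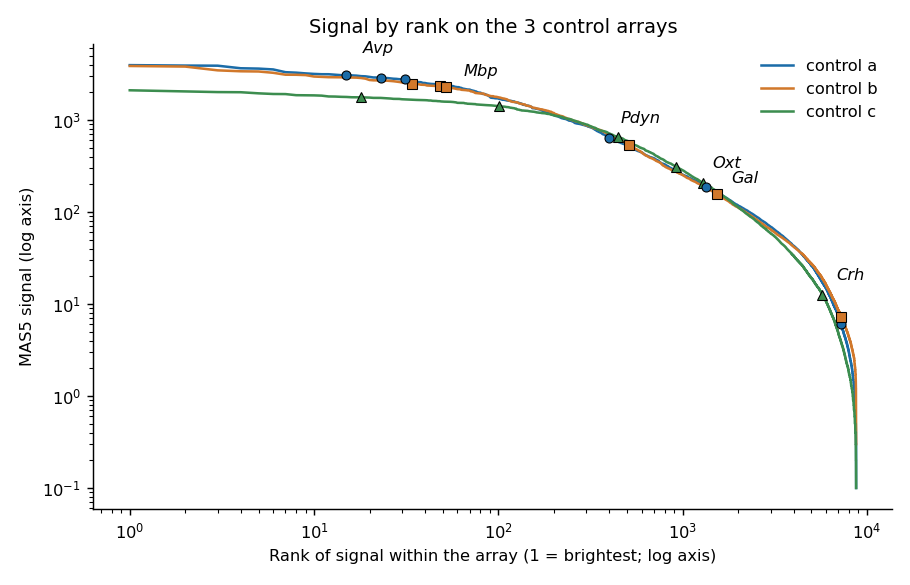
MAS5 signal (log axis) against the rank of the signal within the array (log axis) for the 8740 probe sets of control arrays a, b and c, with 6 genes marked on each array. The curve of array c starts at 2104.8 where a and b start at 3950.8 and 3867.3, and the c point of Oxt lies far to the right of its a and b points, which sit among those of Avp and Mbp.

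The vasopressin gene Avp was among the brightest genes of the nucleus on every control array, and the oxytocin gene Oxt on only a and b. Avp had signals of 2867.6, 2486.9 and 1764.9 on a, b and c, and percentiles of 99.74, 99.62 and 99.80. Its mean percentile was 99.72. Its signal was lowest on c, whose top was compressed, while its percentile there was as high as on a and b. Oxt had signals of 3074.1, 2331.1 and 208.3, and percentiles of 99.83, 99.46 and 85.26. Oxt thus had the widest range of percentile among the genes that reached the top 10 percent on at least 2 arrays, and without array c its mean percentile was 99.65. A further Avp probe set, M25646_at, also fell away on array c, with 1631.8, 834.5 and 8.2, and the remaining one, M64785_at, was dim throughout at 14.6, 2.0 and 1.8. Avp and Oxt encode closely related precursors. Oxt has 1 probe set here, so its low value on c has no second reading. In bulk tissue, fewer cells of a type and less RNA per cell cannot be told apart.

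The promoters of both hormone genes are shown because these genes mark the nucleus, and that of the somatostatin gene Sst because it was the next bright peptide gene with a well known response element. The sequences are from RefSeq, build GRCr8, and run 5' to 3' on the gene's strand from 250 bases before the annotated start to 50 after it. The windows are chr3:138248473-138248772 on the minus strand for Avp, chr3:138235504-138235803 on the plus strand for Oxt and chr11:90461296-90461595 on the plus strand for Sst. Capitals mark CATAAA in Avp and Oxt, TGACCTTGACC in Oxt and TGACGTCA in Sst.
Avp: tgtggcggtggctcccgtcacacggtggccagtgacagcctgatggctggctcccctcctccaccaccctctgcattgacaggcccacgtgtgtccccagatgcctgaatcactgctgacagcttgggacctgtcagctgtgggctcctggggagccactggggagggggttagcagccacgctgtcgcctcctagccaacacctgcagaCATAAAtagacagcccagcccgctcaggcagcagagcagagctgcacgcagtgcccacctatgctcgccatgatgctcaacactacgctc
Oxt: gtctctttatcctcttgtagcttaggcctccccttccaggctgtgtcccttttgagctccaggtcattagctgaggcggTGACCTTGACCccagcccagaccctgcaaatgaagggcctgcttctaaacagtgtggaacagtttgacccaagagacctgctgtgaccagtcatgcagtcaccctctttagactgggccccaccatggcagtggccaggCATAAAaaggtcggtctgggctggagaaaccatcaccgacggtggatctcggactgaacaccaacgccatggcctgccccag
Sst: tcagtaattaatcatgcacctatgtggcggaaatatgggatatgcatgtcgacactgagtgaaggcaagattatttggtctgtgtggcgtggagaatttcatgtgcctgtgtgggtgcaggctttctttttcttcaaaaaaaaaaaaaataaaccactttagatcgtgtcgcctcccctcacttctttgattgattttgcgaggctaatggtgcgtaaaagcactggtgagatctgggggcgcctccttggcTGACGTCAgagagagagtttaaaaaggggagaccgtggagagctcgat
CATAAA, a variant of the TATA box, begins 40 bases before the start in Avp and 32 before it in Oxt. Anywhere in the window, it was found on the gene strand of 6.8 percent of all 27457 promoters of this length. No rate was computed for its position. It was present in 5.1 percent of promoters of genes in the top 10 percent on all arrays. Of those under the 40th percentile on all arrays 8.1 percent had it, and of the non-brain list 22.6 percent. TGACCTTGACC in Oxt begins 171 bases before the start and is a pair of TGACC, a half-site of nuclear receptors, with 1 base between. Such a pair, with any base between and on either strand, was found in 23 of the 27457 promoters and in 3 of the 3871 measured genes with a promoter in the table. TGACGTCA, the palindromic cyclic AMP response element, begins at base 3 after the annotated start in Sst and was present in 1.9 percent of all promoters. All positions depend on the annotated starts, and whether these are the starts used in the nucleus was not tested. Among the 20 hormone and co-peptide genes with a promoter, 4 had it (Sst, Th, Cartpt and Ucn). It was present in 23 of 355 promoters of genes in the top 10 percent on all arrays (6.5 percent) and in 22 of 906 of those under the 40th percentile on all arrays (2.4 percent). These promoter groups also differed in composition, with a median of 23.0 CG dinucleotides in the bright group and 8.0 in the dim group, and TGACGTCA itself contains CG.

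Peptides and enzymes that magnocellular neurons may make beside their hormone covered the whole range of signal. Of 33 such genes listed, 25 were measured, with a list median of 65.5 ± 4.17. Of these, 3 were in the top 10 percent on all arrays (12.0 percent, against 8.66 percent of all genes). Under the 40th percentile on all arrays lay 6, where 23.4 percent of all genes lay. Above the non-brain level lay 13 (52.0 percent, against 44.7 percent of all genes). The brightest were Agt, the angiotensinogen gene, which astrocytes also express, then Sst and Pdyn. Agt had signals of 1183.5, 1083.8 and 1080.6. Pdyn, the dynorphin precursor of vasopressin neurons, had signals of 642.8, 528.7 and 650.5, and a mean percentile of 94.81. Its further probe set read 110.8 in the mean (percentile 76.47). Both Pdyn readings varied little between arrays. Sst had signals of 700.4, 703.9 and 1029.1, and its further probe set read 331.2, 278.0 and 309.6. Both Sst probe sets lay near or above the 90th percentile.

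Several further peptide genes had a middle level. Tac1, the substance P precursor, had a mean signal of 280.0 ± 51.9, Penk, the enkephalin precursor, of 247.2 ± 75.0 and Gal, the galanin gene, of 218.9 ± 82.0. A further probe set of Tac1 read 81.1 in the mean. Th, which makes the precursor of dopamine and noradrenaline, read 166.3, 136.2 and 215.0, and Npy, the neuropeptide Y gene, 156.5, 167.4 and 119.2. Each of these 5 genes differed by less than 2-fold between its lowest and highest array, and their order is not resolved at n = 3. Cck, Crh and Vip formed a dim group. Cck, which encodes cholecystokinin, read 19.5, 23.5 and 12.2 (percentile 36.59). Crh, the corticotropin-releasing hormone gene, read 6.1, 7.2 and 12.6 (22.83), and Vip 3.2, 2.8 and 9.2 (13.93). These 3 genes lay below the non-brain level, as did Calcb, the dimmest of the list at 9.95.

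**Figure D2:**
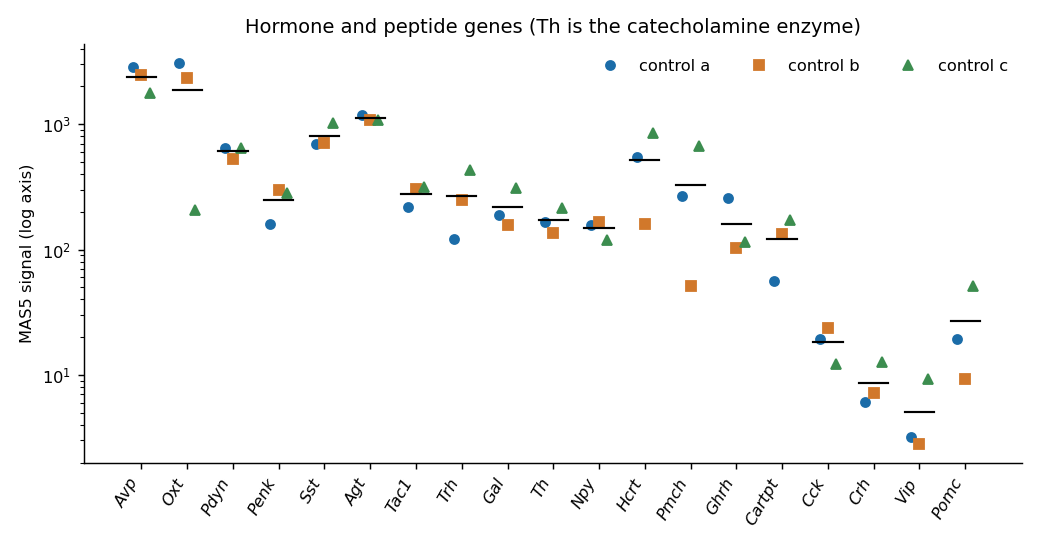
MAS5 signal (log axis) of hormone and peptide genes and of Th on control arrays a, b and c, with a bar at the mean of the 3 arrays. Avp lies above Agt on all 3 arrays, Oxt falls to 208.3 on array c, and Hcrt and Pmch are lowest on array b, at 161.3 and 50.8.

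Genes of neighbouring hypothalamic cell groups were present as well, and some differed widely between the arrays. Of 18 listed, 13 were measured, with a list median of 73.0 ± 3.85. Above the non-brain level lay 8 (61.5 percent, against 44.7 percent of all genes). Sst, Trh, Npy, Cartpt, Tac3, Crh and Vip are also in the co-peptide list. Hcrt, the orexin precursor of lateral hypothalamic neurons, read 548.8, 161.3 and 844.4. Pmch, which encodes melanin-concentrating hormone and is made in the same region, read 268.0, 50.8 and 667.8. Both genes were highest on c, lower on a and lowest on b, with no more than 1 probe set each. Ghrh, the growth hormone-releasing hormone gene of the arcuate nucleus, was high on a alone, at 258.9, 102.9 and 115.5. Trh read 122.5, 247.1 and 431.2, but its further probe set read 197.7, 213.0 and 266.2, so the size of its range depends on the probe set. Pomc, a marker of arcuate neurons, was dim, at 19.5, 9.3 and 51.3, and Hdc, the histamine-synthesising enzyme of the tuberomammillary nucleus, was the dimmest of the list, at 4.7, 5.8 and 2.0. Of the 13 genes, 8 had their highest percentile on c and 7 their lowest on b. No such count was made over all genes, so these counts do not set the list apart. Gnrh1 had a mean percentile of 58.83, below the non-brain level. How much of each array's RNA came from outside the nucleus was not tested.

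The machinery that makes and stores peptide hormones gave strong signal. Of 14 measured genes of granins and prohormone processing (19 listed), 5 were in the top 10 percent on all arrays and 11 lay above the non-brain level, with a list median of 83.0 ± 3.52. Cpe, the carboxypeptidase that trims cut peptides, read 1740.5, 1555.8 and 1074.8. Pam, which amidates the C-terminus that vasopressin and oxytocin both need, read 713.8, 989.4 and 1164.4, and Scg5, the chaperone 7B2 of prohormone convertase 2, 1026.8, 918.2 and 870.9. Vgf read 477.1, 583.9 and 570.0, and the granin Chgb 335.7, 514.7 and 494.2. These 5 are the ones that reached the top 10 percent on every array. The convertase Pcsk2 itself lay lower, with 120.5, 125.1 and 108.4 (percentile 77.73), and Pcsk5 lowest, at 40.69. The granins Scg2 and Scg3 differed between the arrays. Scg2 read 130.3, 422.4 and 208.1, and Scg3 252.7, 619.7 and 583.2. The 7 probe sets of Pam ranged from a mean percentile of 21.08 to 96.93.

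Transcription factors were mostly of low signal. The 18 measured members of a list of factors of these neurons and of nuclear receptors (24 listed) had a list median of 49.6 ± 4.57, below that of all genes. Thra, the thyroid hormone receptor alpha gene, stood alone in the top 10 percent, with 729.3, 716.2 and 838.5. Its further probe sets had mean percentiles of 76.50 and 74.47. The POU factor Pou3f2, which is needed to form these neurons, read 89.0, 52.5 and 60.9 (percentile 66.00), and its relative Pou3f3 84.6, 142.6 and 56.3. The retinoid receptor Rxrb lay at 69.82 and the orphan receptor Nr4a1 at 67.51. The estrogen receptor beta gene Esr2, known in magnocellular neurons, lay at 58.90, and Esr1, the alpha gene, read 8.2, 5.5 and 11.2. Thrb was the dimmest, at 18.13. Immediate early genes, which neurons switch on with activity, lay near the level of all genes. Of 21 measured (24 listed) 10 lay above the non-brain level (47.6 percent, against 44.7 percent of all genes), with a list median of 61.6 ± 2.95 and none in the top 10 percent on all arrays. Egr1 read 207.2, 385.4 and 401.9, Fos 237.2, 183.6 and 241.4, Egr4 200.8, 150.1 and 87.0, and Arc, which encodes a synaptic protein, 153.8, 129.7 and 122.9. Egr1 and Fos are given by the brightest of 4 and 3 probe sets, whose others lay between 52.15 and 72.21 for Egr1 and at 50.59 and 68.32 for Fos. Fosl1 was the dimmest of the list, at 12.66.

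Markers of neurons in general were among the brightest lists. Of 25 measured (33 listed) 16 were in the top 10 percent on all arrays and 23 above the non-brain level, with a list median of 94.0 ± 0.82. Thy1, a surface glycoprotein of neurons, read 2182.8, 2342.7 and 2049.2. The ubiquitin hydrolase Uchl1 had a mean percentile of 98.92, the tau gene Mapt of 97.69 and the vesicle protein Vamp2 of 97.60. Camk2a, abundant in excitatory forebrain neurons, was the dimmest, at 21.3, 35.3 and 13.4 (percentile 41.04). Its further probe set lay at 21.58.

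Genes of GABA synthesis and transport, not all of them neuronal, lay above the non-brain level, and the single measured vesicular glutamate transporter was dim. All 5 measured genes of the GABA list lay above that level, with a list median of 85.7 ± 4.60. Slc32a1, the vesicular GABA transporter, read 873.1, 971.2 and 1194.9, but 75.6, 54.4 and 62.8 on its further probe set. Gad1, which makes GABA, read 760.3, 1362.1 and 602.6. Gad2, the other such enzyme, read 132.9, 108.0 and 92.6. The GABA transporter Slc6a11 of astrocytes lay at 85.72 and Abat, which breaks GABA down, at 78.05. Slc17a7, the vesicular glutamate transporter of cortical neurons, read 6.5, 9.4 and 1.7 (percentile 15.97). Slc17a6, the transporter more typical of the hypothalamus, was not analysed here. The glutamate list held only 1 more measured gene, the dehydrogenase Glud1 at 97.18, so its median of 56.6 ± 3.64 describes 2 genes that lie far apart. The 15 measured genes of other transmitter systems had a list median of 52.0 ± 2.73. In it Ache, which breaks down acetylcholine, the glycine transporter Slc6a9 and the vesicular acetylcholine transporter Slc18a3 were in the top 10 percent on all arrays. Slc18a3 read 325.7, 370.2 and 364.3, and 250.6, 283.2 and 218.3 on its further probe set. Chat, the enzyme that makes acetylcholine, read only 4.6, 6.4 and 20.8. The serotonin transporter Slc6a4, whose neurons lie in the brain stem, read 110.3, 72.2 and 77.9. Dbh, which makes noradrenaline, read 22.5, 4.6 and 1.7, and the vesicular transporter Slc18a1 was the dimmest of the list at 8.36.

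**Figure D3:**
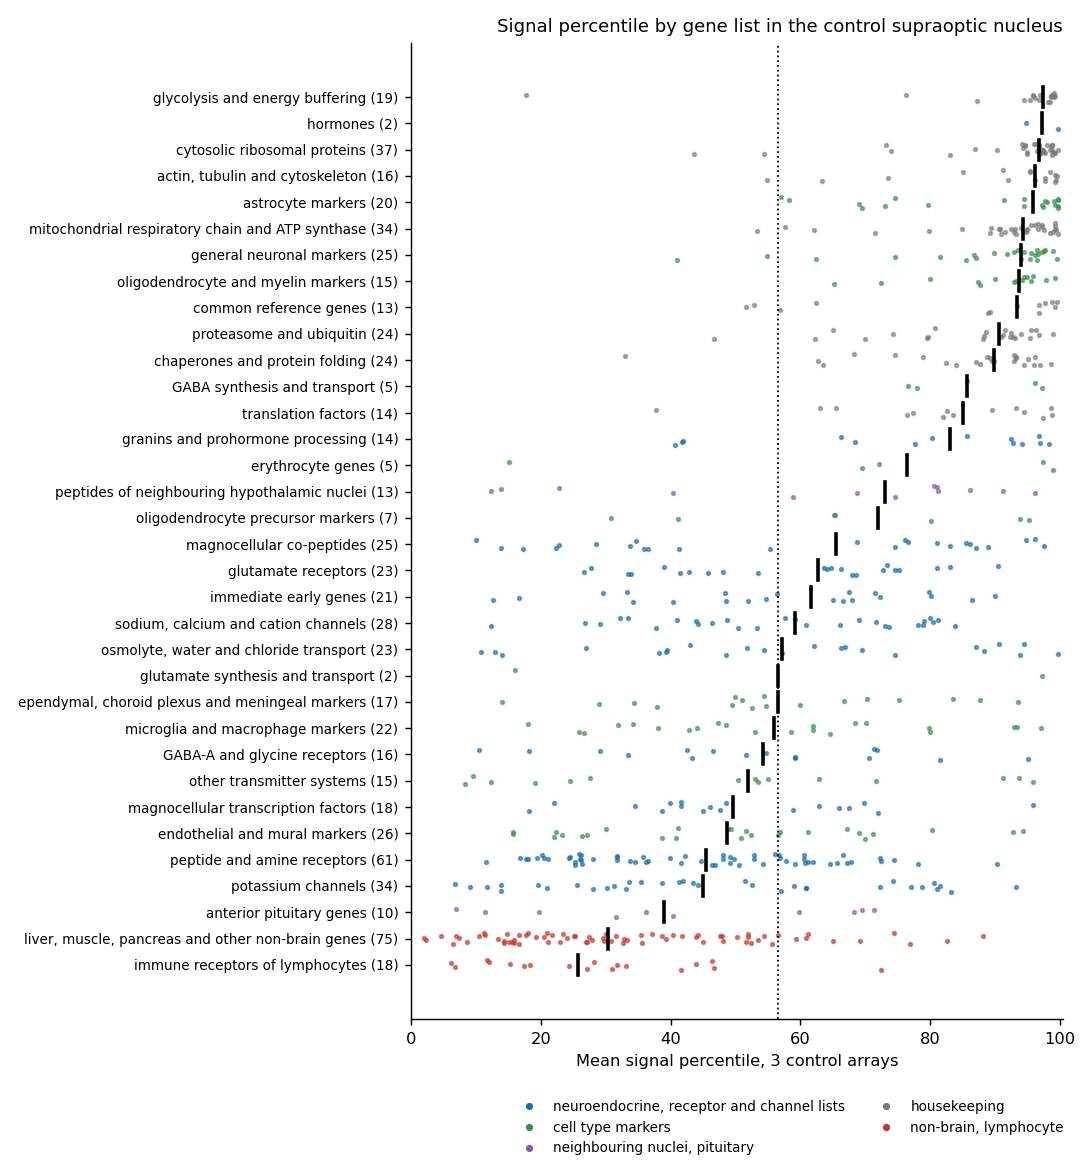
Mean signal percentile over the 3 control arrays (100 is the brightest) for each measured gene of the 34 lists, with the number measured in brackets, a bar at the list median and a dotted line at the median of all genes (56.6). Medians lie above 90 for the hormone, neuronal, astrocyte, myelin and most housekeeping lists, with chaperones at 89.9 and translation factors at 85.0, receptor and channel lists spread over the whole axis, and genes of other tissues and of lymphocytes lie lowest, at medians of 30.3 and 25.7.

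Genes for peptide and amine receptors lay mostly near or below the middle of the range. Of 61 measured genes for peptide and amine receptors (66 listed), none was in the top 10 percent on all arrays. Above the non-brain level lay 15 (24.6 percent, against 44.7 percent of all genes). Under the 40th percentile on all arrays lay 16, where 23.4 percent of all genes lay. The list median was 45.4 ± 3.51. The receptors for the nucleus' own hormones were among the dimmest. Oxtr, the oxytocin receptor gene, read 5.5, 10.8 and 4.2 (percentile 19.41), with a further probe set at 10.48, and Avpr1a, a vasopressin receptor gene, was the dimmest of the list at 2.0, 7.5 and 2.4 (11.48). Both lie below the non-brain level. The brightest were Drd3, a dopamine receptor, at 90.31, the serotonin-gated channel Htr3a at 78.21, the cannabinoid receptor Cnr1 at 74.49 and the natriuretic peptide receptor Npr1 at 72.47. The Drd3 value rests on 1 of 2 probe sets: the other read 2.5, 4.0 and 1.6 (percentile 7.35). Cnr1 read 65.4, 200.4 and 89.3, more than 2-fold higher on b than on the other arrays.

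The 16 measured GABA-A and glycine receptor subunits (21 listed) had a list median of 54.3 ± 6.75, with 5 above the non-brain level (31.2 percent, against 44.7 percent of all genes). Gabrb2 was the 1 subunit in the top 10 percent on all arrays, with 513.7, 822.8 and 634.7, but its further probe set had a mean percentile of 56.69. Gabrb1 read 125.4, 155.4 and 187.4, the glycine receptor subunit Glra2 lay at 71.79 and Gabrg1 at 71.37, and Gabrr2, a subunit known from the retina, at 10.50. The 23 measured glutamate receptor genes (25 listed) had a list median of 62.7 ± 1.36 with none in the top 10 percent on all arrays. Of the 23, 13 lay above the non-brain level (56.5 percent, against 44.7 percent of all genes). Grik5, a kainate receptor subunit, read 431.7, 237.0 and 343.8, and the NMDA subunit Grin2c 236.9, 152.9 and 132.1. The metabotropic Grm3 lay at 81.09 and Grm4 at 75.15, and Grm6, a receptor of retinal bipolar cells, was the dimmest, at 26.60. The obligatory NMDA subunit Grin1 read 129.2, 136.0 and 46.9, more than 2-fold lower on c than on both others.

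Ion channels showed the same spread. The 34 measured potassium channel genes (40 listed) had a list median of 45.0 ± 3.72. Of the 34, 11 lay above the non-brain level (32.4 percent, against 44.7 percent of all genes). The beta subunit Kcnab2 was alone in the top 10 percent on all arrays, with 481.4, 435.2 and 467.1, but its further probe set had a mean percentile of 64.33. Kcnj11, the pore of the ATP-sensitive channel, lay at 83.16, Kcnh2 at 81.51, the 2-pore channel Kcnk1 at 81.05 and Kcnq1, a channel of heart and epithelia, at 6.73. The 28 measured sodium, calcium and other cation channel genes (38 listed) had a list median of 59.2 ± 3.11, with none in the top 10 percent on all arrays. Of the 28, 13 lay above the non-brain level (46.4 percent, against 44.7 percent of all genes). Scn2a, a neuronal sodium channel, was very even, at 134.0, 136.0 and 140.5. The calcium channel subunit Cacna2d1 read 121.1, 263.8 and 200.6, the acid-sensing channel Asic2 lay at 81.22, the sodium channel Scn3a at 80.38, and the skeletal muscle channel Cacna1s at 12.38. Trpv1, of which a variant has been linked to osmosensing in these neurons, read 7.5, 10.3 and 14.7.

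Genes of osmolyte, water and chloride transport had a list median of 57.1 ± 3.78 over 23 measured (29 listed), near that of all genes (56.6). Of the 23, 11 lay above the non-brain level (47.8 percent, against 44.7 percent of all genes). Atp1b1, a beta subunit of the sodium pump, had the highest mean signal of all named genes, at 3546.9, 3466.3 and 1490.8. The other beta subunits Atp1b2 and Atp1b3 lay at 94.53 and 90.70. Slc12a5, the neuronal cotransporter that moves chloride out, was steady at 521.0, 486.9 and 535.0. Slc12a2, which moves chloride in, read 183.0, 276.1 and 248.6 on the brightest of 4 probe sets, and the others had mean percentiles of 66.37, 53.24 and 6.23. Slc12a1, a transporter of the kidney, was the dimmest of the list at 10.74.

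With the brightest probe set of each gene, astrocyte genes were as bright as those of neurons. With the median probe set astrocyte markers had a list median of 85.2 against 91.1 for neuronal markers, and with the dimmest 80.5 against 87.8. Of 20 measured astrocyte markers (25 listed) 13 were in the top 10 percent on all arrays and 18 above the non-brain level. Their list median with the brightest probe set was 95.8 ± 0.52. The secreted protease inhibitor Cst3 read 2631.4, 2887.6 and 1803.1, glutamine synthetase (Glul) 2900.9, 2419.8 and 1950.0, the lipid carrier Apoe 2525.2, 2861.2 and 1861.6, and the calcium-binding S100b 2899.1, 2639.9 and 1726.6. Their mean percentiles lay between 99.72 and 99.77. All 4 probe sets of Glul had mean percentiles of 94.00 or more, whereas a further S100b probe set read 12.4, 17.5 and 44.2. The water channel Aqp4 read 123.1, 206.9 and 43.2, more than 2-fold lower on c than on the others, and the potassium channel Kcnj10 was the dimmest of the list, at 57.09. Gfap was not analysed here.

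Myelin genes were also bright, and which tissue their signal came from was not tested. All 15 measured oligodendrocyte markers (29 listed) lay above the non-brain level and 9 were in the top 10 percent on all arrays, with a list median of 93.7 ± 0.53. Myelin basic protein, Mbp, read 2770.7, 2269.7 and 1406.3, and lay at a mean percentile of 99.30. Qdpr read 836.3, 647.4 and 787.9. Mobp, another myelin protein, read 2604.5, 793.3 and 1169.9, more than 2-fold higher on a than on the others, and 2 of its 3 further probe sets were likewise highest on a (1200.2, 305.2 and 500.4; 926.3, 296.8 and 310.3). All 3 probe sets of Mag, the myelin-associated glycoprotein, were highest on a and lowest on b, the brightest at 968.8, 523.4 and 710.0. Over the 15 genes of the list, 8 had their highest percentile on a, 6 on c and 1 on b. Their lowest lay on b in 7, on a in 4 and on c in 4, and the matching count over all genes was not made. The lineage factor Sox10 was the dimmest, at 65.13. Markers of oligodendrocyte precursors had a list median of 72.0 ± 8.60 over 7 measured (10 listed), with Cspg5 at 95.26 and Bcan at 93.91, both of which astrocytes or neurons also express, Pdgfra, the marker receptor of these cells, at 80.18, and Vcan lowest, at 30.84.

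**Figure D4:**
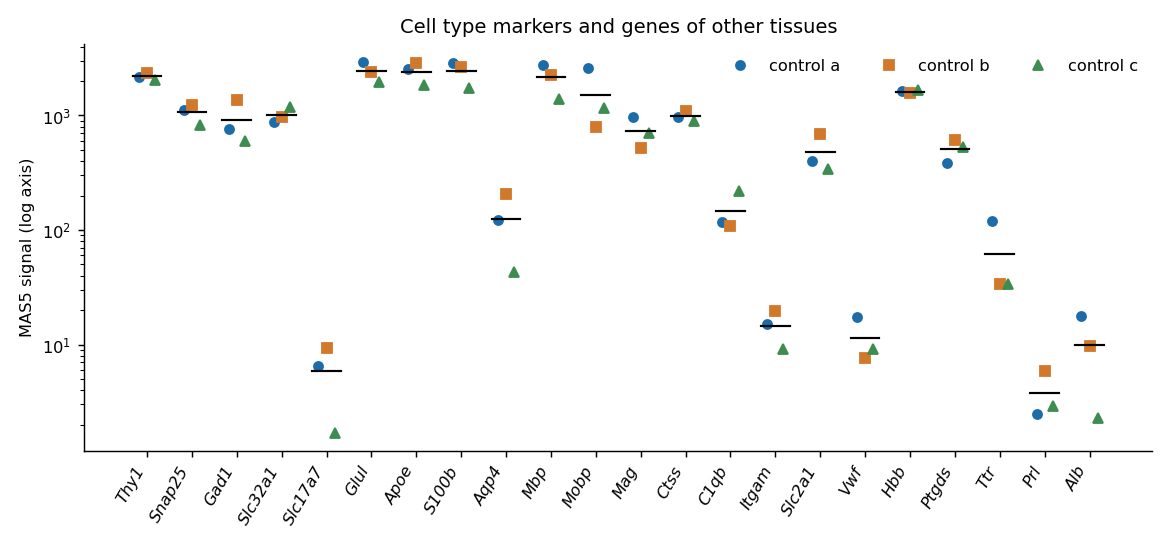
MAS5 signal (log axis) of marker genes on control arrays a, b and c, with a bar at the mean of the 3 arrays. Thy1, Glul, Apoe, S100b, Mbp and Hbb are among the high markers, and the lowest value of these is 1406.3, for Mbp on array c. Slc17a7 and Prl lie under 10 on all 3 arrays, and Mobp is highest on array a.

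Microglial, vascular and blood genes differed by what they encode. The 22 measured microglia and macrophage markers (28 listed) had a list median of 56.0 ± 2.91, close to that of all genes. Ctss, a lysosomal protease of microglia, read 974.8, 1104.0 and 899.1, B2m and Ctsb, which other cells also express, lay at 93.43 and 92.95, and the complement gene C1qc at 80.04 on 1 of 3 probe sets, the others being at 10.14 and 2.86. The integrin Itgam read 15.0, 19.8 and 9.2, and the Fc receptor Fcgr2b was the dimmest of the list, at 17.97. Of the 22 genes, 10 lay above the non-brain level (45.5 percent, against 44.7 percent of all genes). Under the 40th percentile on all arrays lay 3, where 23.4 percent of all genes lay. The 26 measured endothelial and mural markers (33 listed) had a list median of 48.7 ± 1.79. Alpl, a phosphatase of brain capillaries, read 492.7, 492.5 and 661.5, and the glucose transporter Slc2a1 403.5, 691.5 and 343.9. Their further probe sets had mean percentiles of 64.11 for Alpl and 84.29 for Slc2a1. Slco1a4, an organic anion transporter, lay at 80.34 and the peptidase Anpep at 71.14. Vwf, the clotting factor of endothelium, read 17.3, 7.7 and 9.1, and Des, the desmin gene of muscle, lay lowest at 15.68. Hbb, a beta-globin gene of red cells, was bright and very even, at 1623.6, 1564.0 and 1653.2, and the closely related Hbb-b1, whose probes may bind both transcripts, read 1049.0, 939.6 and 1189.1. The erythrocyte list had a median of 76.4 ± 2.96 over 5 measured genes (14 listed), with Alas2 at 72.19, Slc4a1 at 69.57 and Epor at 15.12.

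Tissues that could be cut with the nucleus were checked in the same way. The 17 measured markers of ependyma, choroid plexus and meninges (20 listed) had a list median of 56.6 ± 5.62. Ptgds, the prostaglandin D synthase that meninges and oligodendrocytes make, read 388.4, 614.1 and 535.4, Enpp2 lay at 87.64, Igf2 at 83.46, Igfbp2 at 75.27 and Aqp1, the water channel of choroid plexus, lowest at 13.98. Ttr, which choroid plexus makes in great amounts, read 119.8, 33.8 and 33.5. All 10 anterior pituitary genes were measured, with a list median of 39.0 ± 5.98. Prl, the prolactin gene, read 2.5, 5.9 and 2.9, Gh1, the growth hormone gene, 14.9, 29.2 and 11.3, and Pou1f1, the factor of these pituitary cells, lay lowest at 6.88. Receptors and subunits made the top of that list, with Cga at 71.33, Trhr at 69.56, Ghrhr at 68.23 and Lhb at 59.73. Lymphocyte genes had the lowest list median of the 34 lists, 25.7 ± 5.25 over 18 measured (21 listed), with the kinase gene Lck at 72.48, Ctla4 at 46.70, Gzmb at 46.32, Cd8b at 43.90 and Cd2 at 6.09. In the non-brain list, 38 of 75 genes (88 listed) lay under the 40th percentile on all arrays and none reached the top 10 percent on all. The albumin gene Alb read 17.9, 9.7 and 2.3, and Fabp1, of liver and gut, was lowest at 2.01. The list has bright exceptions, the insulin genes Ins2 at 88.16 and Ins1 at 76.91, Apoc3 at 82.65 and Pnlip at 74.41. In Ins2 and Apoc3 the brightest probe set stood alone, since the 2 further probe sets lay at 18.04 and 11.30 for Ins2 and at 45.23 and 24.76 for Apoc3.

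Housekeeping genes filled the top of the range. Genes of glycolysis and energy buffering had a list median of 97.4 ± 0.31 over 19 measured (24 listed), with 16 in the top 10 percent on all arrays. The aldolase Aldoc, a brain form that astrocytes express, read 2777.3, 2659.7 and 1283.1. The nucleotide carrier Slc25a4 and the creatine kinase Ckb both had a mean percentile of 99.13, the enolase Eno1 of 98.95, and Pgam2, the muscle form of its enzyme, of 17.65. The 37 measured ribosomal protein genes (79 listed) had a list median of 96.8 ± 0.31, with 30 in the top 10 percent on all arrays. Rps29 read 3112.2, 2904.7 and 1583.4, Rps16 1745.3, 1682.4 and 1535.4, Rpl27a and Rpl19 lay at 99.31 and 99.09, and Rpl5 was the dimmest, at 26.9, 24.5 and 24.2. The short sequence CTTTCC, of the pyrimidine type found at the start of such genes, lay within 50 bases of the start, on the gene strand, in 14 of their 33 promoters (42.4 percent), against 4.5 percent of all promoters in the table.

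Genes of the respiratory chain had a list median of 94.4 ± 0.65 over 34 measured (55 listed), 23 in the top 10 percent on all arrays. COX1, encoded in mitochondrial DNA, read 3271.6, 2353.4 and 1760.2, COX3, also mitochondrial, 2360.4, 1943.8 and 1852.8, and the nuclear subunits Cox8a and Cox6a1 lay at 99.30 and 99.26. Cox8b, the muscle form of Cox8a, was the dimmest, at 53.29. Actin, tubulin and other cytoskeleton genes had a list median of 96.1 ± 0.78 over 16 measured (29 listed), with Actb at 99.53, Tuba1b at 99.45, Tmsb4x at 99.30, Tubb5 at 99.23 and Map1b lowest at 54.92. Proteasome and ubiquitin genes had 90.7 ± 1.58 over 24 (34 listed), with the subunits Psmb5 at 96.76, Psme1 at 96.29, Psmb4 at 95.62 and the immune subunit Psmb9 lowest at 46.72. Chaperones had 89.9 ± 1.89 over 24 (30 listed). Among them Hsp90ab1 read 2586.3, 2722.0 and 893.8, Calr lay at 96.99, Hspd1 at 96.19 and Canx at 95.99, the endoplasmic reticulum chaperone Hspa5 read 336.6, 548.4 and 508.2, and the inducible Hspa1a was lowest at 32.98. Translation factors had 85.0 ± 2.74 over 14 (22 listed), with Eif4a2 at 98.77, Eef2 at 98.68, Eef1a2, the neuronal form, at 97.43, Eef1a1 at 94.50 and Eif2b5 at 37.81. Genes in common use as references had 93.4 ± 0.95 over 13 (19 listed). They were not alike in evenness, as Rplp0 read 1748.6, 1413.6 and 1534.3, Ywhaz 884.8, 1479.7 and 1201.1, and Polr2a 142.3, 9.5 and 31.1.

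Of the 100 brightest genes by mean percentile, 13 were in the ribosomal protein list, 9 in that of glycolysis and energy buffering, 8 in the astrocyte, 7 in the respiratory chain, 7 in the cytoskeleton, 4 in the neuronal, 2 in the myelin and 1 in the hormone list, and a gene can be in several lists. A further 43 were in no list. The brightest of these was the 14-3-3 gene Ywhah, at 2496.8, 3260.5 and 1913.9 and the highest mean percentile of all genes (99.80). Next came Ndrg4 at 99.64, the proton pump subunit Atp6v0c, which acidifies vesicles and granules, at 99.48, the 14-3-3 gene Ywhab at 99.37, Gnas, the G protein subunit that raises cyclic AMP, at 99.33, the lysosomal precursor Psap at 99.18, Rtn1, a reticulon of neuroendocrine cells, at 99.06, Grina at 99.02 and the complex I subunit Ndufb8 at 98.85. Resp18, a protein of neuroendocrine secretory granules, read 1466.5, 2372.5 and 1591.2 (99.14). Of the 87 probe sets in the brightest 1 percent, 52 had 1 gene symbol, 16 had several and 19 had none. The rankings of named genes leave out those without exactly 1 symbol. The 2 brightest without a symbol were rc_AI639076_f_at, at 3652.8, 3809.2 and 2004.7, and rc_AI171355_s_at, at 3906.7, 3107.9 and 1918.5. Probe sets marked by the suffix _s_at, whose probes match more than 1 transcript, made up 50.6 percent of the brightest 1 percent and 16.8 percent of all.

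Measured as the SD of log2(signal + 3), the spread between arrays was smallest for bright probe sets and largest for dim ones above the very bottom. The median SD of log2(signal + 3) over the 3 arrays was 0.32 in the brightest 10 percent of probe sets, which is 1.25-fold, and 0.70 in a dim group of 874 probe sets around a signal of 11.1. In the dimmest 10 percent, around a signal of 3.0, it was 0.40. There the added 3 is as large as the signal and damps the SD, so this value does not show closer agreement. The spread by signal was not computed without a pseudocount. In the brightest 10 percent the percentile of a probe set ranged by 1.9 points over the arrays in the median, against 19.5 in that dim group. Of the probe sets in the top 10 percent of an array, 85.6 percent were shared between a and b, 85.8 between a and c and 86.5 between b and c. Over all 8740 probe sets Spearman's rho was 0.885 for a and b, 0.929 for a and c and 0.887 for b and c, a description across probe sets, which are not replicates.

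**Figure D5:**
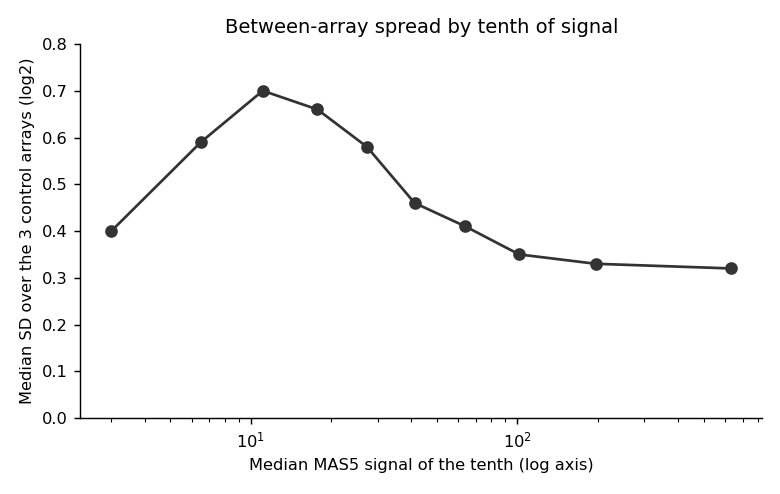
Median SD over the 3 control arrays of log2(signal + 3), in 10 groups of 874 probe sets ordered by mean signal, against the median signal of the group (log axis). The spread peaks at 0.70 around a signal of 11.1 and falls to 0.32 in the brightest group. The added 3 damps the SD of the dimmest groups.

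Of 1393 genes with a mean signal of at least 100, some stood at least 2-fold apart on 1 array from both others. On a, 13 were lower and 22 higher, on b 28 lower and 15 higher, and on c 11 lower and 23 higher. Array b was lowest for Hcrt and Pmch, as above, for Ina, a neuronal filament (849.4, 330.3 and 772.1), and for the GABA-B receptor gene Gabbr1 (602.2, 261.1 and 979.1). Array c was low for Oxt, Aqp4, Grin1, Atp1b1, Ndrg4, Tmsb4x, Aldoc and Hsp90ab1 in signal and high for Tuba4a, a tubulin (61.8, 55.2 and 751.2). In percentile, Atp1b1, Ndrg4, Tmsb4x, Aldoc and Hsp90ab1 stayed between 96.57 and 99.17 on c, whereas Oxt, Aqp4 and Grin1 lay at 85.26, 59.40 and 61.17. Array a was high for Mobp, Ghrh and the actin gene Actg1 (3054.6, 1271.3 and 1102.1) and low for Scg3, Trh and Cartpt. By range of percentile, the genes after Oxt and Hcrt that reached the top 10 percent on at least 2 arrays were Cltc, the clathrin heavy chain (339.7, 716.4 and 203.2), the transketolase Tkt, Rpn1, Ndufb1, Psmb1, Rpn2, Rpl39 and Mcpt1l1. Rpn1 and Rpn2, which belong to the same glycosylation complex, read 173.8, 300.8 and 525.8 and 159.3, 314.2 and 380.5. Both rose from a to b to c, as did Tkt, Ndufb1 and Psmb1, so this order is not particular to that complex. Mcpt1l1, a mast cell protease gene, read 495.6, 190.1 and 405.5, and 1.9, 4.1 and 1.3 on its further probe set.

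Probe sets of 1 gene often disagreed. Among 1565 genes with several probe sets, the gap in mean percentile between the brightest and the dimmest was 19.5 in the median and over 50 in 186 genes (11.9 percent). Of 269 such genes whose brightest probe set lay in the top 10 percent, 40 had another under the 40th percentile. Pam and Avp are examples of genes with such a gap. Other genes named above by their brightest probe set also had a much dimmer one, among them Ache (dimmest at 30.06), Anpep (17.33), Hspa5 (15.74), Htr3a (26.84), Igf2 (20.86), Pdgfra (4.63), Psme1 (9.01), Slc4a1 (19.55) and Trhr (14.77). By contrast Glul, Mag and Hsp90ab1 read bright on every probe set, with the dimmest at 94.00, 86.25 and 94.65.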

How the data were processed

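RNA of the supraoptic nucleus was hybridised to Affymetrix rat arrays, and the 3 control arrays of 9 were used. The deposited values are linear MAS5 intensity (signal) per probe set, per the submitters' processing notes, which give no version. On every array the mean after trimming 2 percent at each end was 100.0. Of 8799 probe sets, 59 Affymetrix controls were left out. Of the 8740 kept, 7006 had 1 gene symbol in the platform annotation, 308 several and 1426 none. Of the 7006, 6985 matched RefSeq by gene ID, with 0 symbols changed, and 4736 genes resulted. Signals were ranked within each array with no further normalization. A pseudocount of 3, about the 10th percentile of the signals, was used only for the log2 spread. Ranking and gene selection were tested on simulated data.

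The members and the 34 lists (924 genes, 689 measured) were chosen with earlier results of these data known. Genes were named by rule: the 25 brightest, up to 4 brightest and the dimmest member of each list, 47 fixed genes (40 measured), the 10 genes in the top 10 percent on at least 2 arrays with the widest range, and the 10 brightest in no list. Actg1, Cartpt, Chat, Dbh, Esr1, Esr2, Gabbr1, Ghrh, Grin1, Ina, Itgam, Scg3, Tac3, Trpv1, Tuba4a and Ucn fall outside it and were chosen after their values were seen, as was the non-brain level. Among others, Pcsk1, Chga, Gfap, Cd68, Sim1 and Gapdh as genes were not analysed here. Alternatives were other probe sets per gene, ranks among genes, other thresholds, pseudocounts and normalization, and leaving out each array. Python 3.11.15, pandas 2.3.3, numpy 2.4.6 and matplotlib 3.10.9 were used. The number of arrays limits the precision.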

Additional observations from a re-analysis of the deposited data

How the results depend on the processing

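With the brightest probe set of a gene, 410 genes lay in the top 10 percent on all 3 arrays, 183 in the top 5 percent and 895 in the top 20 percent. With the dimmest probe set, 252 lay in the top 10 percent. List medians moved most with the probe set that stands for a gene. Taking the dimmest or the median probe set in place of the brightest lowers a list by construction. The median of all genes was not computed under these settings, so whether a list fell more than genes in general is not known. With the dimmest probe set the list medians were 54.3 for the hormones (main value 97.3), 52.9 for co-peptides (65.5), 67.3 for granins (83.0), 87.8 for neuronal markers (94.0), 80.5 for astrocyte markers (95.8), 84.5 for myelin markers (93.7), 44.9 for microglia (56.0), 39.2 for endothelium (48.7), 16.4 for non-brain genes (30.3) and 95.4 for ribosomal proteins (96.8). With the median of a gene's probe sets they were 84.5 for the hormones, 72.8 for granins, 91.1 for neuronal, 85.2 for astrocyte and 89.3 for myelin markers, 49.7 for microglia, 45.0 for endothelium, 21.8 for non-brain genes and 96.1 for ribosomal proteins. Ranked among genes, co-peptides had 59.8, microglia 49.5, endothelium 41.8 and non-brain genes 24.3. Of 34 lists, 34, 28 and 17 moved by more than the SD under these 3 settings, and 0 with the probe set brightest over all 9 arrays. Leaving out 1 array cannot shift a mean of 3 arrays by their SD, so it could count no list as moved. The between-array spread of 0.45 was 0.55 with no pseudocount, 0.31 with a pseudocount of 16, 0.41 after quantile normalization, 0.40 for probe sets over the 40th percentile, and 0.35 to 0.42 with each array left out. With the highest member of the non-brain list as the level, 608 genes lay above it and not 2115. No paired analysis was possible because there is 1 group and no test, and the letters a, b and c only name the arrays.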
